A study of Mus musculus with 12 samples.

Results

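The 10 genes described here encode MHC class I molecules and the machinery that loads peptides on them. They are H2-K1, H2-D1, B2m, Tap1, Tap2, Tapbp, Psmb8, Psmb9, Psmb10 and Nlrc5. They were chosen by gene symbol from the 24346 symbols measured, and all 10 passed the filter on low values that 11808 genes passed. Bulk RNA-seq was made from macrophages sorted out of B16F10 tumours, a mouse melanoma line, or MC38 tumours, a mouse colon carcinoma line. All mice carried Arg1-RFP, a red fluorescent reporter of arginase 1, so the controls carry the reporter as well; age, sex and time of tumour growth are not given in the labels. The sorted cells were CD45+, MHCII+, F4/80+ and CD11b+ and negative for B220, CD90.2, NK1.1, Ly6G and Ly6C. The 4 groups of 3 libraries were RFP+ and RFP- macrophages of B16F10 tumours and RFP+ and RFP- macrophages of MC38 tumours.

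MHC class I molecules show peptides made inside a cell to CD8 T cells. The proteasome cuts proteins into peptides, the TAP transporter carries these into the endoplasmic reticulum, and tapasin holds the empty class I molecule beside the transporter until a peptide binds. Interferon gamma raises the whole set, in part through IRF1 and the class I transactivator NLRC5, and myeloid cells carry it at a high level.

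Read depth is not given, but an estimate from low values put B16F10 libraries as shallower than MC38 libraries. By it, the FPKM that a single read adds was 2.97 to 3.53 times that of the MC38 RFP- library number 2 in B16F10 libraries, and 1 to 1.15 times in MC38 libraries. Counts of genes listed at 0 did not separate the tumours, at 8479 to 10597 in B16F10 and 8527 to 10081 in MC38 libraries. Arg1 followed the gate, at 615, 642 and 916 FPKM in B16F10 RFP+ libraries against 62.8, 56.2 and 125 FPKM in B16F10 RFP- libraries, and at 394 to 553 FPKM in MC38 RFP+ libraries against 40.6 to 58.5 FPKM in MC38 RFP- libraries. Marker genes of several cell types differed in level between the tumours. The 8 melanocytic genes summed to 8150 to 10700 FPKM in the B16F10 libraries against 10.9 to 19.2 FPKM in the MC38 libraries. The 11 macrophage core genes summed to 6060 to 15200 FPKM in B16F10 libraries against 27700 to 38000 FPKM in MC38 libraries. The 6 fibroblast genes summed to 1.78 to 2.93 FPKM in B16F10 and 48.3 to 64.7 FPKM in MC38 libraries. The 8 dendritic cell genes summed to 21.1 to 62.9 FPKM in B16F10 and 77.7 to 177 FPKM in MC38 libraries. For 5 neutrophil genes the sums overlapped, at 19.7 to 812 FPKM in B16F10 and 38 to 43.4 FPKM in MC38 libraries. The B16F10 RFP- library number 12 stood apart from the rest of its tumour, with correlations of 0.938 to 0.961 to the other B16F10 libraries, against 0.964 to 0.983 among those. It also had the highest total, 815591 FPKM, and the most genes listed at 0, 10597.

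Of the 10 genes, 8 have a promoter window in RefSeq (GRCm38.p6), made of 250 bases before and 50 after the gene start; Tap2 and Nlrc5 have none in the table used. The stretches below are shown because H2-K1, H2-D1, B2m and Tap1 stand for the heavy chains, the light chain and the transporter. Each holds at least 1 letter match to a motif searched for. Capitals mark matches, on either strand, to GAAANNGAA and GAANNGAAA (interferon response, the second spelling added after the sequences were seen), TTCNNNGAA (interferon gamma activated), GGGNNTTCC (NF-kB), CTGATTGG (Y box) and TGACGC (X2 box). H2-K1 is chr17:34000322-34000468 on the minus strand, H2-D1 is chr17:35262913-35263058 on the plus strand, B2m is chr2:122147437-122147686 on the plus strand and Tap1 is chr17:34187306-34187555 on the plus strand. The gene starts of these windows are those of RefSeq. The H2-D1 stretch lies inside the GENCODE span of that gene, chr17:35262730-35267499, so the annotations place its start differently.
H2-K1: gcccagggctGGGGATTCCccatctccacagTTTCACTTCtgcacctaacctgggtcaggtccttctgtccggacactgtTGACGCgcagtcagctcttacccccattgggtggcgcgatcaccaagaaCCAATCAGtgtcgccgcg
H2-D1: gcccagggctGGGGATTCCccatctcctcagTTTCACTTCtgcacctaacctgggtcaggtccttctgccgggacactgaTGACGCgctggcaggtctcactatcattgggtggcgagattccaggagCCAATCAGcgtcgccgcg
B2m: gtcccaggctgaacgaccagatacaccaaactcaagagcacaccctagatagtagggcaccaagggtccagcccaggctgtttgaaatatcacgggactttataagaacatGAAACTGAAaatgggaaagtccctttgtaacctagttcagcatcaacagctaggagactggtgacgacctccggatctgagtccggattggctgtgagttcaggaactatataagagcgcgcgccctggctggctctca
Tap1: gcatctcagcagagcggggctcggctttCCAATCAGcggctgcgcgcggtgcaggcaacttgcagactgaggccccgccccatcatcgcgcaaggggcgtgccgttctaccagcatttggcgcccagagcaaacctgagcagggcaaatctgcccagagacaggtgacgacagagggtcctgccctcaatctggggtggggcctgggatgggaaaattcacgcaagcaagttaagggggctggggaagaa
The H2-K1 and H2-D1 stretches run from 10 bases before the NF-kB match to 10 after the Y box, and the second of 2 RefSeq windows of H2-K1 was used. They carry the NF-kB, interferon, X2 and Y matches in the same order and share 130 of 147 aligned positions, 88.4%. That value belongs to a stretch framed by its shared matches and chosen after the sequences were seen: over the whole 250 bases before the start, identity was 56.5% with the first H2-K1 window and 63.2% with the second. The Tap1 match is a Y box, and the same bases are the Y box match of Psmb9, whose window overlaps that of Tap1 by 275 bases on the opposite strand. Psmb8 had the interferon gamma activated match, and the windows of Tapbp and Psmb10 had none of the 6 motifs. Over all 32851 windows, GAAANNGAA was in 8.56%, GAANNGAAA in 7.52%, TTCNNNGAA in 8.3%, GGGNNTTCC in 5.82%, CTGATTGG in 4.1% and TGACGC in 7.4%. A match of letters is a description and not a bound site.

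All 10 genes were lower in macrophages from B16F10 tumours than in macrophages from MC38 tumours, in both gates, and in neither gate did the libraries of the tumours overlap for any of them. Each passed an adjusted p of 0.05 (limma with Benjamini-Hochberg adjustment over all genes) as lower in B16F10, against a background of 20% of all genes called lower in RFP+ cells (2364 of 11808) and 21.9% in RFP- cells (2584 of 11808). No overlap with B16F10 lower was seen for 24.8% of all genes in RFP+ cells and 22.8% in RFP- cells. The median log2 difference of the 10 was -2.08 in RFP+ and -1.82 in RFP- cells, where the median of all genes was 0.24 and 0.23. Macrophage core genes were lower by a similar amount, by a mean log2 difference of -1.92 in RFP+ and -1.96 in RFP- cells, and 10 of those 11 genes were called lower in each gate. The part of melanoma, fibroblast, neutrophil and dendritic cell RNA and of the macrophage share in the class I differences was not tested in this fit. In bulk samples, fewer macrophages and less RNA per macrophage cannot be told apart.

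**Figure D1:**
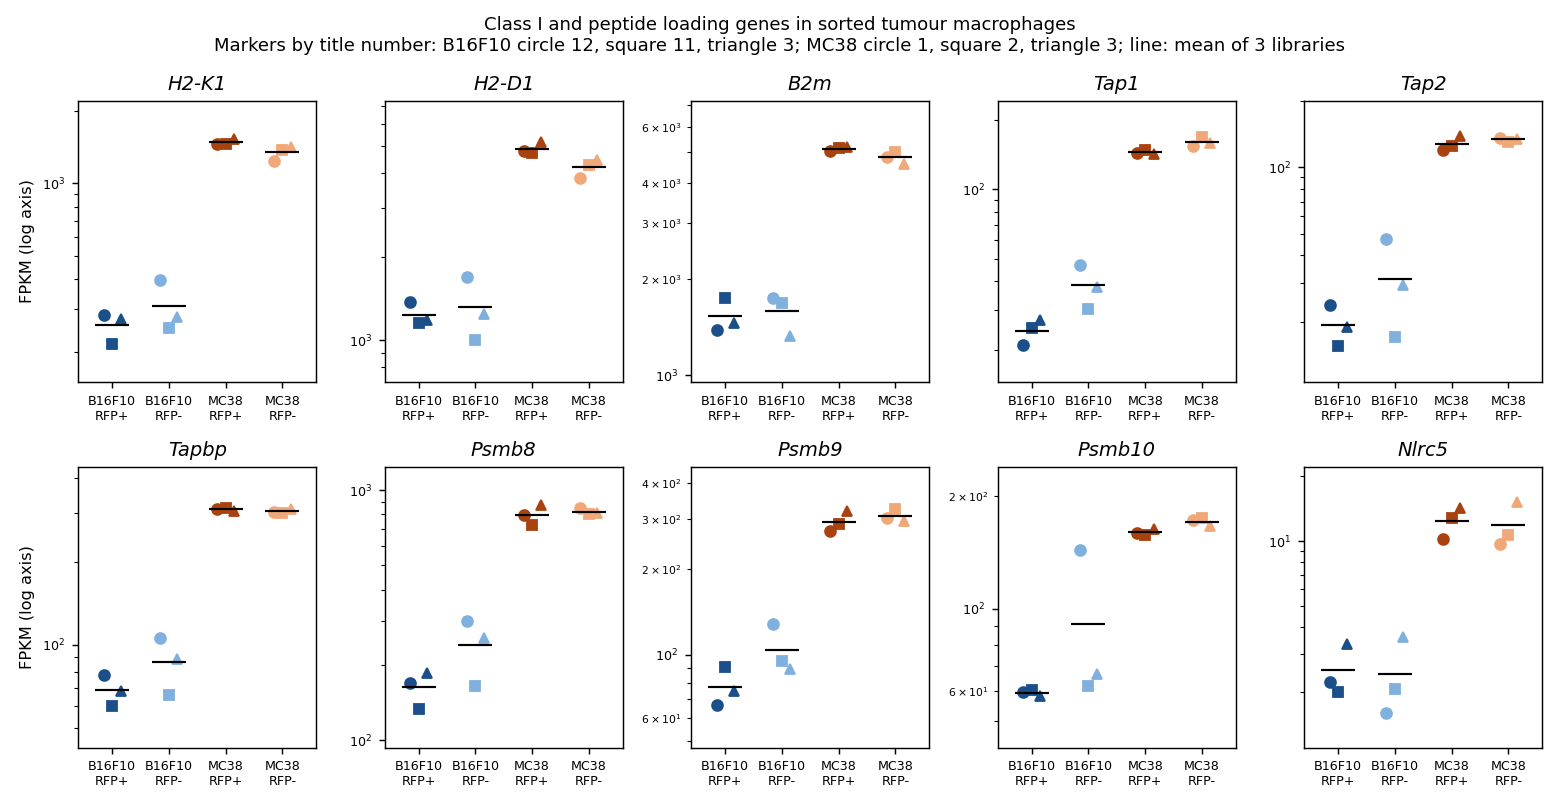
FPKM of the 10 genes on log axes, 1 panel a gene, with a point for each library and a line at the mean of 3. All 6 B16F10 libraries lie under all 6 MC38 libraries in every panel, and the B16F10 RFP- library number 12 (circle) is the highest of the B16F10 libraries in 9 of the 10 panels.

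The classical heavy chains H2-K1 and H2-D1 hold the peptide groove. H2-K1 (chr17:33996017-34000347, minus strand, GRCm38) had 284, 215 and 273 FPKM in B16F10 RFP+ libraries, against 1450, 1460 and 1530 FPKM in MC38 RFP+ libraries. In RFP- cells it had 398, 251 and 278 FPKM in B16F10 and 1240, 1380 and 1410 FPKM in MC38. H2-K1 was thus lower by 5.77-fold in RFP+ cells (log2 -2.53 ± 0.17 SE, adjusted p = 8.53e-08) and by 4.43-fold in RFP- cells (log2 -2.15 ± 0.17 SE, adjusted p = 3.49e-07). H2-D1 (chr17:35262730-35267499) was more abundant, at 1370, 1150 and 1180 FPKM in B16F10 RFP+ libraries and 4800, 4750 and 5170 FPKM in MC38 RFP+ libraries. Its log2 difference was -1.99 in RFP+ and -1.71 in RFP- cells. H2-K1 and H2-D1 are close copies of each other and of other class I genes, so reads may be split between them in ways that the FPKM does not show.

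B2m, the light chain that every classical class I molecule needs, was the most abundant of the 10 in all 4 group means. It stood at 1380, 1750 and 1460 FPKM in B16F10 RFP+ libraries, against 5020, 5140 and 5190 FPKM in MC38 RFP+ libraries. RFP- libraries had 1750, 1690 and 1330 FPKM in B16F10 and 4830, 5010 and 4580 FPKM in MC38. The log2 difference of B2m was -1.75 ± 0.15 SE in RFP+ and -1.61 ± 0.15 SE in RFP- cells, smaller than that of H2-K1. Within a library, the log2 ratio of H2-K1 to B2m averaged -2.57 ± 0.39 in B16F10 RFP+ and -1.79 ± 0.03 in MC38 RFP+ cells (SD, n = 3 each).

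Tap1 and Tap2 are the subunits of the peptide transporter. Tap1 (chr17:34187553-34197225) had 21.0, 24.9 and 27.0 FPKM in B16F10 RFP+ libraries, against 144, 148 and 142 FPKM in MC38 RFP+ libraries. It had 46.9, 30.2 and 37.6 FPKM in B16F10 RFP- and 155, 168 and 159 FPKM in MC38 RFP- libraries. The log2 differences of Tap1 were -2.54 ± 0.15 SE (adjusted p = 3.39e-08) and -2.06 ± 0.15 SE (adjusted p = 2.01e-07). Tap2 had the largest log2 difference of the 10 in both gates, -2.67 ± 0.27 SE in RFP+ and -2.18 ± 0.27 SE in RFP- cells. Its levels were 23.7, 15.5 and 19.0 FPKM in B16F10 RFP+ and 120, 124 and 138 FPKM in MC38 RFP+ libraries. Tapbp, which encodes tapasin, had log2 differences of -2.16 in RFP+ and -1.82 in RFP- cells. Tap1 and Psmb9 start head to head in overlapping annotation, and reads from the overlap cannot be assigned without strand, which is not given in the sources used here.

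Psmb8, Psmb9 and Psmb10 are the catalytic subunits that replace Psmb5, Psmb6 and Psmb7 when the immunoproteasome forms. Psmb8 had 170, 133 and 186 FPKM in B16F10 RFP+ libraries, against 799, 726 and 870 FPKM in MC38 RFP+ libraries. Its log2 difference was -2.30 ± 0.20 SE in RFP+ and -1.81 ± 0.20 SE in RFP- cells, and that of Psmb9 was -1.92 and -1.56. Psmb10 had the smallest differences of the 10, -1.41 ± 0.23 SE in RFP+ cells (adjusted p = 0.000215) and -1.01 ± 0.23 SE in RFP- cells (adjusted p = 0.00223). In B16F10 RFP- cells Psmb10 stood at 144 FPKM in library number 12 and at 62.1 and 66.8 FPKM in the other libraries, against 172, 175 and 166 FPKM in MC38 RFP- libraries.

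Genes of the constitutive proteasome went in both directions. Of the 14 constitutive 20S genes, 1 was called higher and 3 lower in B16F10 in RFP+ cells, and 6 higher and 2 lower in RFP- cells, with medians of 0.12 and 0.22. Of all genes, 35.2% were called higher in B16F10 in RFP+ cells and 37.8% in RFP- cells. The log2 ratio of Psmb8 to Psmb5 averaged -0.68 ± 0.50 in B16F10 RFP+ and -0.56 ± 0.42 in B16F10 RFP- libraries, against 2.07 ± 0.11 in MC38 RFP+ and 2.09 ± 0.12 in MC38 RFP- libraries (SD, n = 3 each). Psmb9 to Psmb6 averaged -2.65 and -2.52 in B16F10 RFP+ and RFP- libraries, against -0.31 and -0.19 in MC38 RFP+ and RFP- libraries. Psmb10 to Psmb7 averaged -0.96 and -0.70 in B16F10 RFP+ and RFP- libraries, against 0.92 and 1.11 in MC38 RFP+ and RFP- libraries. B16F10 and MC38 libraries did not overlap in these 3 ratios. A ratio within a library does not change with its scaling, but it does mix the cells that library holds, and melanocytic genes were high in each B16F10 library.

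**Figure D2:**
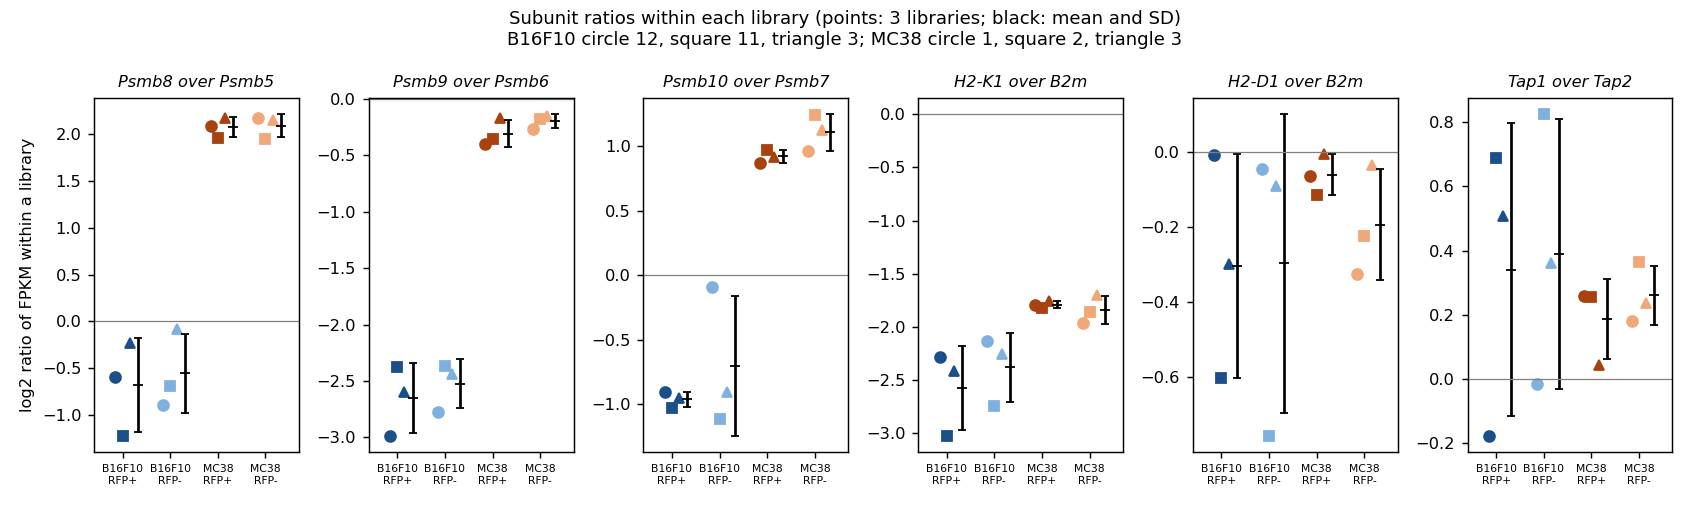
Log2 ratio of FPKM within each library for 6 pairs of genes, with points for 3 libraries a group and the mean and SD in black. The 3 proteasome ratios and the ratio of H2-K1 to B2m separate B16F10 from MC38 libraries. The ratios of H2-D1 to B2m and of Tap1 to Tap2 overlap between tumours.

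Nlrc5, the transactivator of class I genes, was the least abundant of the 10. It had 2.24, 2.01 and 3.36 FPKM in B16F10 RFP+ libraries, against 10.2, 12.8 and 14.2 FPKM in MC38 RFP+ libraries. RFP- libraries had 1.61, 2.08 and 3.59 FPKM in B16F10 and 9.68, 10.7 and 15.2 FPKM in MC38. The log2 difference was -1.93 ± 0.25 SE in each gate, on a scale with a pseudocount of 1 that understates changes at such low levels.

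Scaling each library to its mean over the 11 macrophage core genes removed most of the tumour difference. That scaling moved the median of all genes to 1.83 in RFP+ and 1.87 in RFP- cells, so most genes then stand higher in B16F10. Of the 10 genes, 3 were called lower in RFP+ cells, against 2.90% of all genes: H2-K1 at -0.61 (adjusted p = 0.0119), Tap1 at -0.65 (adjusted p = 0.0233) and Tap2 at -0.80 (adjusted p = 0.00242). In RFP- cells none was called lower, against 3.05% of all genes, and Psmb10 was called higher at 0.93 (adjusted p = 0.00356), against 82.2% of all genes (83.6% in RFP+ cells). The 14 constitutive 20S genes were all called higher under this scaling in both gates, with medians of 2.03 in RFP+ and 2.17 in RFP- cells. The median of the 10 became -0.29 in RFP+ and 0.13 in RFP- cells. The size and for several genes the direction of the tumour difference therefore depends on whether levels are taken per library or per macrophage core transcript.

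**Figure D3:**
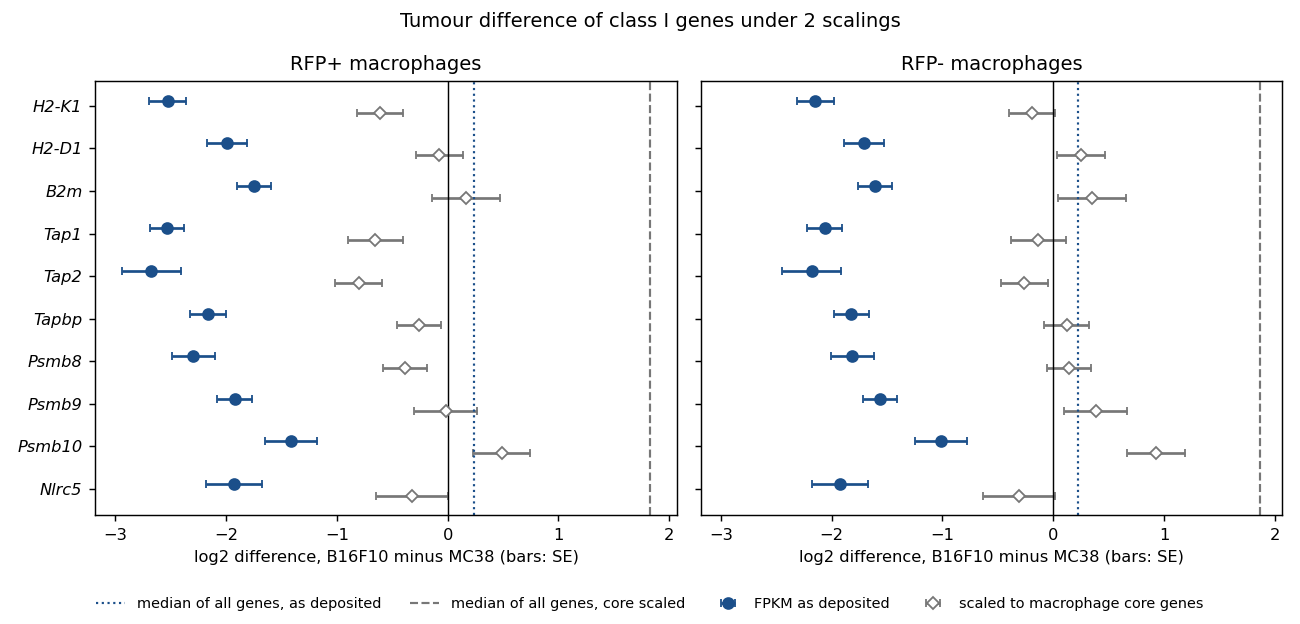
Log2 difference B16F10 minus MC38 with SE for the 10 genes in RFP+ and RFP- cells, as deposited (filled) and scaled to macrophage core genes (open), with the median of all genes under each scaling. As deposited, all 10 lie from -2.67 to -1.01; after core scaling they lie from -0.80 to 0.93.

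Other genes of the pathway were set beside the 10. Of 20 other class I genes, 15 passed the filter and 12 were called lower in B16F10 in each gate, with medians of -1.97 and -1.90. H2-Q7 averaged 13.1 ± 3.3 FPKM in B16F10 RFP+ and 146 ± 16 FPKM in MC38 RFP+ cells (SD, n = 3 each); its log2 difference was -3.40. H2-Q4 at -3.17 and H2-T23, the Qa-1 heavy chain, at -2.56 in RFP+ cells and H2-Q6 at -3.46 in RFP- cells also fell. After core scaling 5 of the list were called lower and 3 higher in RFP+ cells, and 3 lower and 3 higher in RFP- cells; the 4 genes named were still called lower, at -1.54, -1.58, -0.66 and -1.71. Among 22 regulators, 16 were called lower in RFP+ and 15 in RFP- cells, and 1 higher in each. Irf1, an interferon-induced activator of class I genes, had 19.2, 26.2 and 20.5 FPKM in B16F10 RFP+ libraries and 241, 184 and 217 FPKM in MC38 RFP+ libraries, without overlap (log2 -3.23). Socs1, a feedback inhibitor of cytokine signalling, had a log2 difference of -2.69 in RFP+ cells. Core scaling gave 3 regulators lower and 11 higher in each gate. With it Irf1 stood at -1.35 and Socs1 at -1.07, both still called. Stat2 fell by 2.37 in RFP- cells as deposited, and with core scaling it stood at -0.57 (adjusted p = 0.165).

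The loading partners were mixed. Of 8, 4 were called lower and 2 higher in RFP+ cells, and 5 lower and 1 higher in RFP- cells. Tapbpl, a second peptide editor, had a log2 difference of -1.97 in RFP+ cells, and the trimming peptidases Erap1 and Lnpep -1.54 and -2.14 in RFP- cells. P4hb, a disulfide isomerase, was higher at 0.99 in RFP- cells. The proteasome activators Psme1 and Psme2 each fell by 1.53 in RFP+ cells, while Psme3, an activator not tied to interferon, was higher at 0.96 in RFP- cells. Core scaling put Psme1 and Psme2 at 0.38 and Erap1 at 0.33, none of them called; under it no loading partner and none of the 5 proteasome partners was called lower, and 5 loading partners in each gate and 3 (RFP+) and 4 (RFP-) proteasome partners were called higher. Among 9 cross-presentation genes, 4 were called lower and 3 higher in RFP+ cells, and 3 lower and 4 higher in RFP- cells; core scaling gave 1 lower and 5 higher in RFP+ cells, and 1 lower and 7 higher in RFP- cells. Cybb, the oxidase subunit, was at -2.90 and Snap23 at -1.83 in RFP- cells, Rab43 was at -1.33 in RFP+ cells, and Rab27a, which also carries melanosomes, was higher at 3.77 in RFP- cells. The class II list held H2-Aa, H2-Ab1, H2-Eb1, H2-DMa, H2-DMb1, H2-DMb2, H2-Oa, H2-Ob, Cd74, Ciita and Ctss, and the sort took MHCII+ cells. Its genes were called lower for 11 of 11 in RFP+ cells (median -2.77) and for 9 of 11 in RFP- cells (median -2.49). With core scaling 8 were called lower in RFP+ cells (median -1.23), and 6 lower and 2 higher in RFP- cells (median -0.80).

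**Figure D4:**
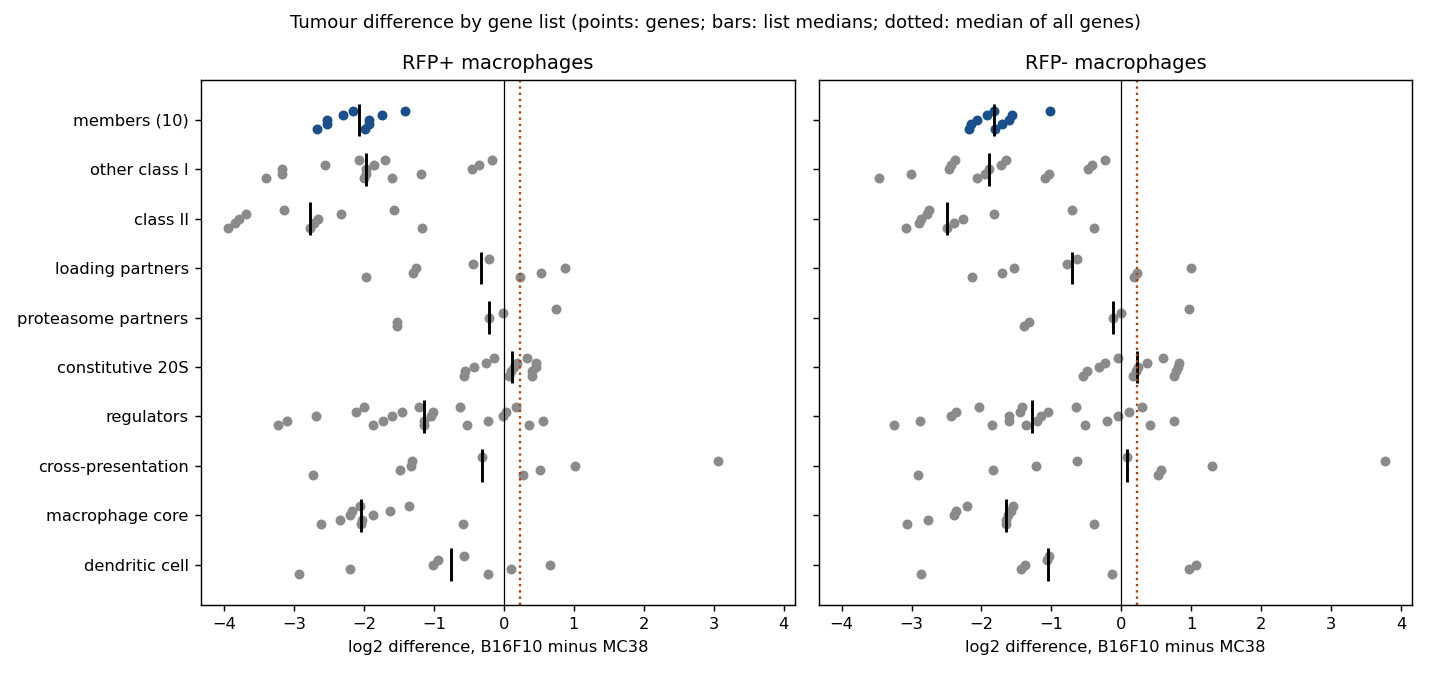
Log2 difference B16F10 minus MC38 by gene list in RFP+ and RFP- cells, with a point for each gene, a bar at each list's median and the median of all genes dotted. The 10 genes lie from -2.67 to -1.41 in RFP+ and from -2.18 to -1.01 in RFP- cells. The macrophage core genes spread more widely, from -2.62 to -0.58 in RFP+ and from -3.07 to -0.39 in RFP- cells. The constitutive 20S genes lie around the median of all genes.

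Between reporter gates, none of the 10 genes passed the threshold in B16F10, in MC38, in the mean of both or in the difference between tumours, with or without the title number as a block. Without the block, 0.178% of all genes were called in B16F10, 0.0254% in MC38, 0.449% in the mean and 0 in the difference; with it, 1.36%, 0.440%, 1.92% and 0.0339% were called. In B16F10 tumours, 9 of the 10 had negative log2 differences, with a median of -0.37 against -0.01 for all genes. Without the RFP- library number 12 that median was -0.137 with 8 negative, and with the block and without pair 12 it was -0.145. In MC38 tumours 5 were positive and 5 negative, from -0.15 to 0.22.

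Of the 10, the transporter and the immunoproteasome genes had the most negative values in B16F10. The constitutive 20S genes leaned the same way, with 12 of 14 negative and a median of -0.236. Within B16F10 pairs, RFP+ minus RFP- was -0.126 ± 0.417 for the log2 ratio of Psmb8 to Psmb5 (SD, 3 pairs). It was -0.127 ± 0.106 for Psmb9 to Psmb6 and -0.26 ± 0.487 for Psmb10 to Psmb7, with 2, 3 and 2 pairs lower in these ratios. Within MC38 pairs the same 3 ratios differed by -0.0158 ± 0.0618, -0.112 ± 0.0812 and -0.187 ± 0.0879, with 1, 3 and 3 pairs lower. Tap1 in B16F10 stood at -0.62 ± 0.15 SE (adjusted p = 0.217, with the block 0.0946). Its RFP+ libraries, at 21.0 to 27.0 FPKM, did not overlap its RFP- libraries, at 30.2 to 46.9 FPKM. Psmb10 did not overlap either, at 58.2 to 60.7 FPKM in RFP+ and 62.1 to 144 FPKM in RFP- libraries. No overlap with RFP+ lower was seen for 6.22% of all genes. Tap2 stood at -0.57 (adjusted p = 0.497, with the block 0.121) and Psmb8 at -0.52 (adjusted p = 0.482, with the block 0.0864). Psmb9 was at -0.43, Tapbp at -0.32, H2-K1 at -0.24, H2-D1 at -0.06, B2m at -0.05 and Nlrc5 at 0.07.

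These values of the 10 genes lean on the pair numbered 12. Tap1 differed by -1.12 in pair 12, -0.27 in pair 11 and -0.46 in pair 3, and Psmb10 by -1.25, -0.03 and -0.20. With the block and without pair 12, Tap1 was at -0.37 (adjusted p = 0.123) and Psmb8 at -0.38 (adjusted p = 0.0894). Without the RFP- library number 11, in contrast, Tap1 at -0.77 (adjusted p = 0.0367) and Psmb8 at -0.77 (adjusted p = 0.0449) passed, against 0.33% of all genes called lower. Tap2 ran from -0.93 to -0.22 over the fits that left out 1 library. Core scaling with the block, a fit added after the data were seen, called 6 of the 10 lower in B16F10, against 7.91% of all genes: H2-K1, Psmb8, Psmb9, Tap1, Tap2 and Tapbp. The same fit called 4 lower in the mean of both tumours, against 3.95% of all genes: Psmb8, Tap1, Tap2 and Tapbp. The core genes themselves stood higher in RFP+ cells, by a mean log2 difference of 0.195 in B16F10 and 0.175 in the mean of both tumours. Under core scaling the median of all genes was -0.188 in B16F10 and -0.148 in the mean, so the scaling itself shifts genes towards lower values in RFP+ cells. In B16F10 this fit called 1.13% of all genes higher. Weighting libraries by their noise called Tap1 (-0.63, adjusted p = 0.0108) and Psmb8 (-0.54, adjusted p = 0.0486) lower in B16F10, against 0.932% of all genes, and Tap1 (-0.38, adjusted p = 0.0188) in the mean, against 0.838%. The 8 dendritic cell genes summed to 21.1 to 26.7 FPKM in B16F10 RFP+ libraries against 33.7 to 62.9 FPKM in B16F10 RFP- libraries; their part in the gate values was not tested.

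**Figure D5:**
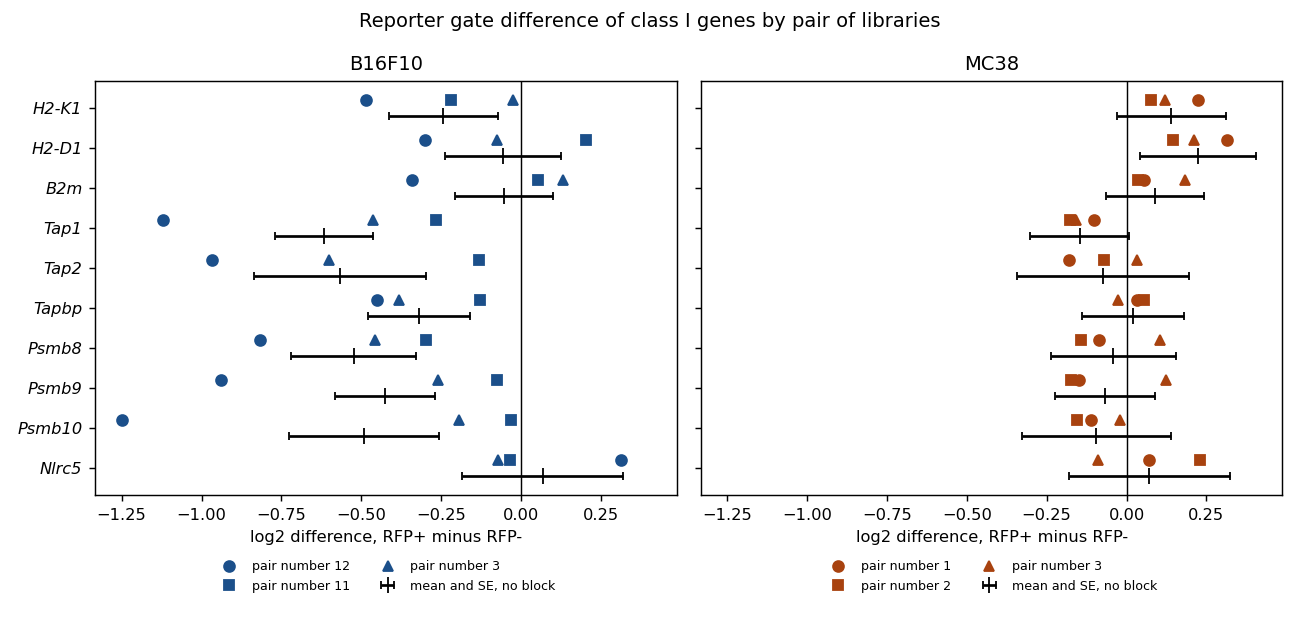
Log2 difference RFP+ minus RFP- of the 10 genes for each pair of libraries with the same title number, and the mean with SE of the fit without a block. In B16F10 the pair numbered 12 lies lowest for 9 of the 10 genes, and in MC38 the pairs stay between -0.18 and 0.31.

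In MC38 tumours, H2-K1 had 1450, 1460 and 1530 FPKM in RFP+ libraries against 1240, 1380 and 1410 FPKM in RFP- libraries, without overlap. H2-D1 and B2m were likewise higher in RFP+ without overlap, and Tap1 and Psmb10 lower, against 6.33% of all genes higher and 4.98% lower without overlap. The log2 differences were small, 0.14 ± 0.17 SE for H2-K1, 0.22 ± 0.18 SE for H2-D1 and 0.09 ± 0.15 SE for B2m, with adjusted p-values of 1.

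Class II genes differed more between the gates than the 10 genes did in their values, though the difference between the lists was not tested. Of 11, 4 fell in B16F10 RFP+ cells (H2-Eb1 -1.56, H2-Ab1 -1.54, H2-Aa -1.48 and H2-DMb1 -1.26), with a list median of -1.25, and none was called in MC38, with a median of -0.45. Ctss went the other way, higher in RFP+ cells in all 3 pairs of each tumour. With 1 library left out at a time, H2-Eb1, H2-Ab1 and H2-Aa lost their call in 11 of 12 fits and kept it only without the B16F10 RFP- library number 11 (adjusted p = 0.0118, 0.00466 and 0.0118). H2-DMb1 lost its call in 4 of these 12 fits. The fits that left out 1 library carried no block. With all libraries and the block, limma called 6 of the 11 lower in B16F10, against 0.525% of all genes, and none in MC38. Adjusted p-values with the block were 0.00148 for H2-Eb1, 0.00586 for H2-Ab1, 0.00148 for H2-Aa and 0.0011 for H2-DMb1. None of the other class I, loading, proteasome, constitutive, regulator or cross-presentation genes was called between gates, with or without the block. H2-Q4 was at -0.65 and H2-M2 at -0.72 in B16F10, Psmb3 at -0.56, Psmb2 at -0.28, Psme1 at -0.23, Psme2 at -0.25, Jak1 at 0.53, Rfxank at -0.48 and Snap23 at 0.31, none past the threshold. Of these, H2-M2, Psme1, Psme2, Psmb3 and Psmb2 were called lower in B16F10 under core scaling with the block, against 7.91% of all genes. H2-Q4 and H2-M2 were called lower under weighting of libraries, against 0.932%, and H2-Q4 with the block and without pair 12, against 0.55%. H2-M2 was near the floor, with means of 0.27 FPKM in B16F10 RFP+ and 1.13 FPKM in B16F10 RFP- libraries.

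After each tumour's mean was taken off, each gene's correlation with the mean profile of the other members over 12 libraries was 0.68 to 0.91 for 8 of them, 0.06 for B2m and -0.26 for Nlrc5. Without the B16F10 RFP- library number 12 these correlations were lower for 9 of the 10 genes, at 0.42 for H2-K1, 0.12 for H2-D1, 0.06 for Psmb9, 0.43 for Psmb10, -0.69 for B2m and 0.57 to 0.84 for Tap1, Tap2, Tapbp and Psmb8, and Nlrc5 turned to 0.55. The genes outside the set with the profile most like its own, among 7781 ranked, were Rn45s (r = 0.985), Tmem179b (0.983), Bckdk (0.971), Rnf10 (0.970), Rfng (0.966) and Exosc5 (0.966). Rn45s is the ribosomal RNA precursor, and it was at 780 FPKM in the B16F10 RFP- library number 12 against 231 to 374 FPKM in the other B16F10 libraries. Without that library, a step added after the data were seen, Rn45s was 35th (r = 0.871), and Pilrb1 (0.964), Shkbp1 (0.935), Cd52 (0.935), Cyp4f18 (0.927), Ssh2 (0.927) and Ccdc88b (0.926) came first. Tmem179b was then 12th (r = 0.916), Bckdk 19th (0.897), Rnf10 26th (0.883), Exosc5 39th (0.86) and Rfng 99th (0.799). Leaving out 1 library thus changed which genes ranked first, while those named over all 12 libraries stayed correlated with the profile.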

How the data were processed

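The authors deposited 1 table per library of gene symbols with FPKM (fragments relative to gene length and to the library total); the file headers name the unit. The submitters' processing notes name Cuffdiff 2.2.1, TopHat2 2.1.1, SAMtools 0.1.18 and Bowtie2 2.2.8, and the mm10 build. RNA was made into cDNA with a SMART-Seq HT kit, per the labels' protocols. The annotation and strand setting were not given in the sources used here, and the read depth is unknown.

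Values entered as log2(FPKM + 1). A gene had to reach 1 FPKM in 3 libraries or more, which 11808 did. Tests used limma 3.58.1 in R 4.3.3 (lmFit, eBayes with trend), 4 group means and 8 residual degrees of freedom, two-sided, with Benjamini-Hochberg adjustment over all genes kept and a threshold of 0.05. The scripts were tested on simulated data. P-values measure the spread between libraries, which may be partly technical since the labels do not say which animal gave which library. Same-numbered libraries of the 2 gates deviated together (r of 0.228 to 0.443 in 6 pairs, against -0.306 to 0.0178 for different numbers), so the number was also fitted as a block, with 4 residual degrees of freedom for gate differences and as a random block (correlation 0.291) for tumour differences. Python 3.11.15 made plots and promoter searches in RefSeq sequences of GRCm38.p6. Gene coordinates are from GENCODE, GRCm38.

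The genes, lists and rules were chosen with earlier results of these data known. The naming rule took all 10 genes. Of each list, for gate and for tumour comparisons apart, it took up to 4 genes past the threshold by size of log2 difference. Where none passed, it took the 2 of lowest unadjusted p. The genes most like the set were the 6 with the highest correlation. Core scaling with the block, the likeness without 1 library, 1 motif spelling and the framed H2-K1 and H2-D1 stretch were added after the data were seen. One gene that the naming rule took is not reported here.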

Additional observations from a re-analysis of the deposited data

Results flagged for a closer look

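H2-K1 was singled out because its 3 pairs moved one way in B16F10 tumours and the other way in MC38 tumours. RFP+ minus RFP- was -0.485, -0.219 and -0.0249 in the B16F10 pairs numbered 12, 11 and 3, against 0.223, 0.0752 and 0.12 in the MC38 pairs numbered 1, 2 and 3. The difference between tumours was -0.38 on the log2 scale (-0.3824), and it did not pass the threshold in limma (adjusted p = 0.895, with the block 0.583). With core scaling H2-K1 in MC38 stood at -0.0153. Pairs opposed in this way were seen for 517 of the 11808 genes kept (4.38%), 299 of them (2.53%) lower in B16F10 and higher in MC38 as H2-K1 was, and for 8 of 84 genes of the related lists (Pdia3, Hspa5, Lnpep, Socs1, Sec22b, Rab27a, Nfya and Nfyb).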

How the results depend on the processing

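In the tumour comparison all 10 genes stayed called lower in both gates under every alternative run other than core scaling, 220 of 220 values in each gate. Core scaling gave 3 called lower in RFP+ cells and 0 lower with 1 higher in RFP- cells; it turned the direction in RFP+ cells of B2m (0.168), Psmb10 (0.486), Psme2 (0.384), Psme1 (0.383) and Rab43 (0.494), and in RFP- cells of H2-D1 (0.247), B2m (0.35), Tapbp (0.122), Psmb8 (0.14), Psmb9 (0.383), Psmb10 (0.926), Erap1 (0.329) and Snap23 (0.0934). In the gate comparison it turned Nlrc5 in B16F10 (-0.0839), H2-K1 (-0.0153), B2m (-0.0646), Tapbp (-0.133) and Nlrc5 (-0.068) in MC38, and H2-D1 (-0.0918), B2m (-0.156) and Nlrc5 (-0.076) in the mean; with the replicate block these values were the same, and 6 genes were called lower in B16F10 and 4 in the mean. Array weights called 2 lower in B16F10 (Tap1 and Psmb8) and 1 in the mean, and turned H2-D1 (0.0386), B2m (0.0882) and Nlrc5 (-0.278) in B16F10, H2-K1 (0.0487) and Nlrc5 (-0.0983) in the mean and B2m (0.00284) in the difference between tumours. Quantile normalization turned H2-D1 (0.148), B2m (0.198) and Nlrc5 (-0.00355) in B16F10, Tapbp (-0.048) in MC38 and B2m (0.0758) in the difference; upper-quartile scaling turned B2m (0.00281) in B16F10 and Nlrc5 (0.0334) in the difference, and a pseudocount of 0.1 turned Nlrc5 (0.0276) there. The replicate block without pair 12 turned H2-D1 (0.0646), B2m (0.0926) and Nlrc5 (-0.0535) in B16F10, H2-K1 (0.00886) in the mean and B2m (0.00231) in the difference. Of all genes in the tumour comparison, core scaling called 2.90% lower in RFP+ cells, and 3.05% lower and 82.2% higher in RFP- cells. In the gate comparison, core scaling with the block called 7.91% of all genes lower in B16F10 and 3.95% in the mean. Array weights called 0.932% of all genes lower in B16F10 and 0.838% in the mean. The causes were not tested.

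Leaving out 1 library at a time, the count of the 10 called lower in B16F10 ran from 0 to 2, and that of all genes from 0 to 39. The log2 differences ran from -0.238 to 0.143 for H2-D1, -0.176 to 0.0238 for B2m and -0.107 to 0.299 for Nlrc5 in B16F10. They ran from -0.105 to 0.0252 for Psmb8 and -0.0524 to 0.249 for Nlrc5 in MC38, from -0.119 to 0.0467 for H2-K1, -0.0074 to 0.183 for H2-D1, -0.0426 to 0.057 for B2m and -0.0183 to 0.185 for Nlrc5 in the mean, and from -0.18 to 0.229 for Nlrc5 in the difference. Over all genes, the replicate block (pairing by number) called 98 higher and 62 lower in B16F10 against 15 and 6 without it, 42 and 10 in MC38 against 3 and 0, and 156 and 71 in the mean against 40 and 13; it changed no call of the 10 genes. Fits of the compared groups alone gave no value for the mean or the difference, and core scaling with the block was run for the gate comparisons only. Only 3 libraries a group and the B16F10 libraries, shallower by the estimate from low values, limit what differences could be seen.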
